A study of Mus musculus with 6 samples.

Results

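The genes described here make cholesterol and fatty acids, together with the regulators that set their level. They were taken as the probes whose platform gene symbol was one of 33 listed genes: 18 of the sterol branch, 9 of the fatty acid branch and 6 regulators of the SREBP transcription factors. Of the 33 genes, 30 had a named probe, with 50 probes among the 45281 on the array. Hmgcs1, Acat2 and Fdft1 had none named and were not analysed here. Acaca, the carboxylase that commits acetyl-CoA to fatty acids, had 1 probe, which was not detected on any array. The other 29 genes passed the filter, a detection p under 0.05 on any 3 arrays or more, and were tested among 10208 genes.

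N-Me is an enhancer of Myc, bound by the transcription factor NOTCH1, and the study compared mice with and without it. The WT group was 3 N-Me WT mice given the corn oil vehicle alone. The KO group was 3 N-Me KO mice, described as conditional knockouts, given tamoxifen in corn oil at 3 mg/kg. Both groups were of the C57 BL6 strain, were injected intraperitoneally and were processed at 40 h. Genotype and drug changed together and cannot be told apart. The sources used here name no tissue, age or recombinase for tamoxifen to act on. All values below are normalized log2 signals or differences between them, so a difference of 1 is 2-fold.

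Sterols and fatty acids are made from acetyl-CoA in separate branches. SREBP2, from Srebf2, mainly drives the sterol enzymes and SREBP1, from Srebf1, mainly the fatty acid enzymes. SCAP carries both proteins from the endoplasmic reticulum to the Golgi, where they are cut free, and INSIG proteins hold SCAP back when sterols are plentiful. Insig1 is itself an SREBP target, so its transcript is commonly read together with the sterol enzymes. Growing lymphocytes use both branches to build membrane.

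Myc read 8.95, 8.75 and 9.04 in WT and 7.42, 6.95 and 7.11 in KO, a fall of 3.37-fold (log2 fold change -1.75 ± 0.16 SE, adjusted p = 0.000406). The arrays detected 18215 to 19486 probes and had raw medians of 121.8 to 132.4. Of 12 T-lineage marker genes with a probe, 10 were detected on every array, Cd3e, Cd4 and Thy1 among them, and the probes of Cd8a and Rag2 on none. The summed linear signal of these 10 was 55807 to 59190 in WT and 55701 to 56838 in KO. Bright genes such as Thy1 (WT mean 13.83) set most of this sum. It hardly registers dimmer ones such as Rag1 (WT mean 8.91). Of the 10, 3 fell (30%, against 17.1% of all genes), 0 rose and 7 did not pass. Those that fell were Rag1, Ptcra and Dntt, genes of immature T cells. Markers of other cell types are read against the 19.7% of all genes that were higher in KO and the 17.1% that were lower. All 7 tested macrophage and dendritic cell markers rose, as did 5 of 7 of stroma and epithelium, 3 of 5 of red cell precursors and 1 of 3 each for B cells and cytotoxic cells, and 0 of these fell. The epithelial marker Krt8 was at 0.10 ± 0.51 and did not pass, and Epcam, Krt5 and Foxn1 were not detected on any array. In bulk RNA, fewer cells of a type and less RNA per cell cannot be told apart.

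The sterol branch was lower in KO where it moved. Steps from squalene onward held 5 of the 6 genes that fell, but also 10 of the 15 tested. Of 15 tested genes 6 fell, 40%, and 0 rose, against 17.1% lower and 19.7% higher, or 36.9% in either direction, over all genes tested. The branch median was -0.35 and that of all genes was 0.0011. The KO arrays lay wholly below the WT arrays for 9 of the 15 genes and wholly above for 1, against 24.4% and 26.1% of all genes, or 50.5% in either direction. Of the 5 genes from mevalonate kinase to farnesyl diphosphate synthase 1 fell, and of the 10 from squalene onward 5 fell. The difference between these stages was not tested. An exact permutation test of 3 arrays against 3, 2-sided, cannot go below p = 0.1 for any single gene, and that is its value wherever the groups do not overlap.

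**Figure D1:**
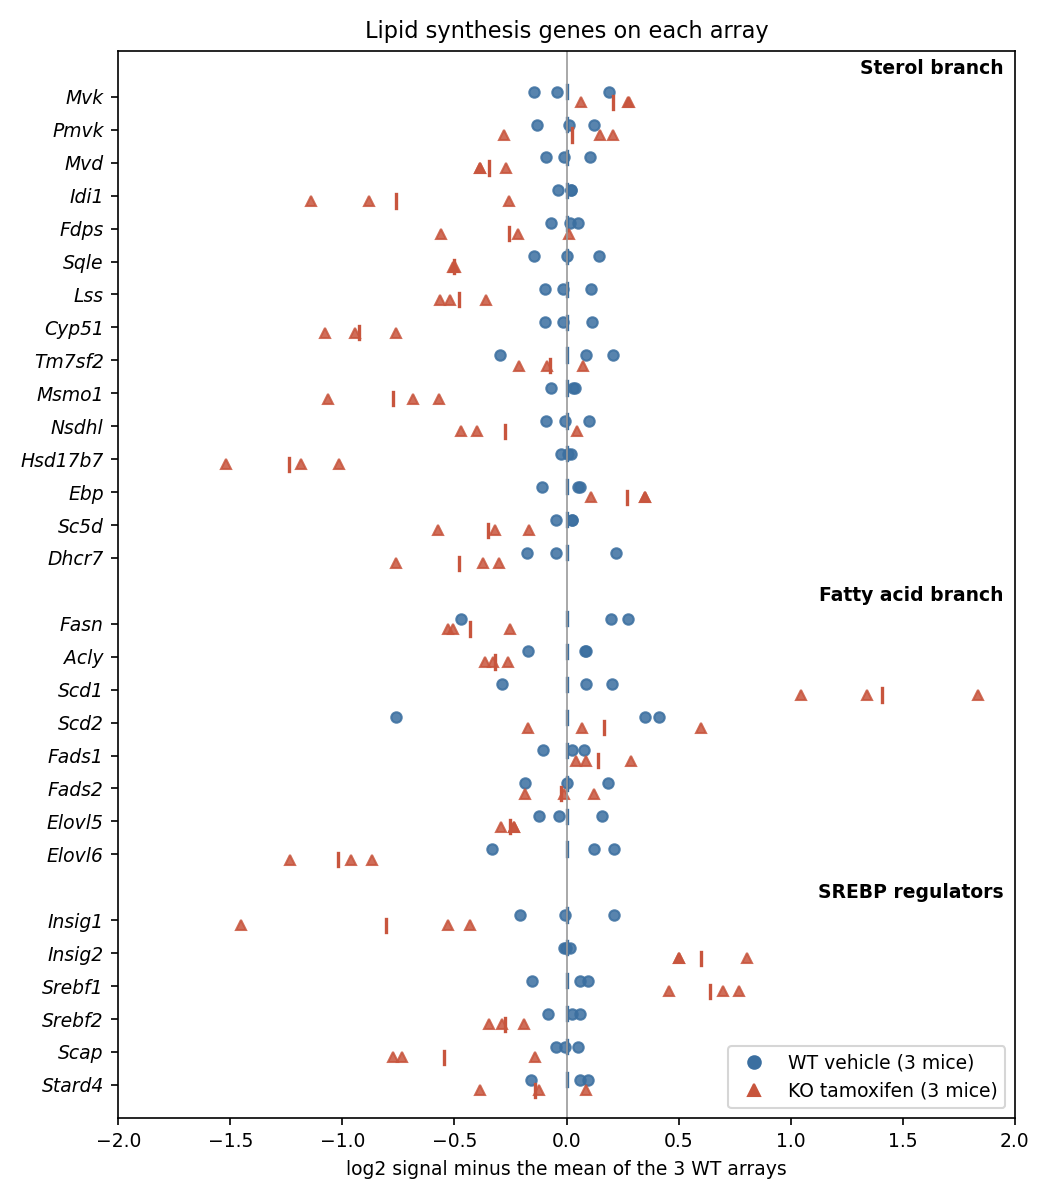
Normalized log2 signal of each of the 29 tested genes on each array, minus the mean of the 3 WT arrays of that gene. Circles are WT vehicle mice, triangles KO tamoxifen mice and short bars group means. The 3 KO arrays lie below all WT arrays for 9 genes of the sterol branch, while Scd1 of the fatty acid branch stands far to the right.

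Hsd17b7 encodes the 3-ketosteroid reductase of sterol demethylation and fell the most of the branch, by 2.36-fold. It read 9.32, 9.37 and 9.36 in WT and 8.34, 8.17 and 7.83 in KO (log2 fold change -1.24 ± 0.15 SE, adjusted p = 0.00108). The WT arrays were nearly level and every KO array was lower by far more than their spread. Cyp51, the lanosterol demethylase, read 8.65, 8.73 and 8.86 in WT and 7.80, 7.99 and 7.67 in KO (-0.93 ± 0.13, adjusted p = 0.00178). Msmo1, the oxidase that begins removal of the next methyl group, read 10.11, 10.12 and 10.01 in WT and 9.51, 9.40 and 9.02 in KO (-0.77 ± 0.15, adjusted p = 0.00559). KO replicate 3 was the lowest array for Hsd17b7, Cyp51 and Msmo1, and the groups did not overlap for any of them.

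Sqle makes squalene epoxide, a rate-limiting step of the sterol branch. Its brightest probe read 10.28, 10.56 and 10.42 in WT and 9.91, 9.92 and 9.92 in KO (-0.50 ± 0.12, adjusted p = 0.0141). The KO arrays were almost identical to each other and lay below all WT arrays. A further Sqle probe fell more, by 0.82 ± 0.17 (SE) on the log2 scale (adjusted p = 0.00889 among the 19082 kept probes, of which 16.5% were lower and 15.7% higher). Lss, which closes the ring to give lanosterol, read 8.31, 8.43 and 8.23 in WT and 7.80, 7.96 and 7.76 in KO (-0.48 ± 0.12, adjusted p = 0.0174). Its groups did not overlap either, but the call was lost when WT replicate 1 was left out (adjusted p = 0.0538), as it was for WT replicate 2 (0.0551), KO replicate 3 (0.0587) and arrays scaled to a common median (0.0537). Over all alternatives the adjusted p of Lss was 0.0139 to 0.0587.

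Idi1, the isomerase that prepares the isoprenoid building block, was the only gene before squalene to pass. It read 6.40, 6.34 and 6.40 in WT and 5.24, 6.12 and 5.50 in KO (-0.76 ± 0.21, adjusted p = 0.0219), and was detected on 2 of the 3 KO arrays. The KO arrays spread widely and KO replicate 2 lay near WT. Leaving out WT replicate 1 lost the call (adjusted p = 0.0659), as did leaving out WT replicate 3 (0.0679) or KO replicate 3 (0.0738), with a range of 0.00422 to 0.0738 over all alternatives. It was also lost with arrays scaled to a common median (0.0570) and with no filter on detection (0.0504). With no background correction the difference was -0.29, with the call kept.

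Mvd, Dhcr7 and Sc5d did not pass although their groups did not overlap. Mvd, the mevalonate diphosphate decarboxylase, read 8.46, 8.38 and 8.57 in WT and 8.20, 8.09 and 8.09 in KO (-0.35 ± 0.12, adjusted p = 0.0502). Dhcr7, the enzyme of the last step to cholesterol in the Kandutsch-Russell route, read 7.97, 7.57 and 7.70 in WT and 7.44, 7.37 and 6.98 in KO (-0.48 ± 0.17, adjusted p = 0.0518). Sc5d, the lathosterol desaturase just before it, read 6.60, 6.53 and 6.60 in WT and 6.0, 6.41 and 6.26 in KO (-0.35 ± 0.14, adjusted p = 0.0753). Mvd and Dhcr7 passed under several settings, and their adjusted p ran from 0.0345 to 0.154 and from 0.0358 to 0.174 over the alternatives.

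The remaining sterol genes showed no difference past the test at their brightest probe. Nsdhl, the dehydrogenase of sterol demethylation, had 4 kept probes that did not give the same call. Its brightest probe read 7.41, 7.33 and 7.52 in WT and 7.02, 6.95 and 7.47 in KO (-0.27 ± 0.16, adjusted p = 0.213), with KO replicate 3 among the WT values. A further probe was also not called, at -0.29 ± 0.15. Both dimmer probes fell, by 0.49 ± 0.13 (adjusted p = 0.0192) and 0.69 ± 0.13 (adjusted p = 0.00499) on the log2 scale, and on these the groups did not overlap. Fdps, which makes farnesyl diphosphate, was at -0.25 ± 0.16, with KO replicate 3 at the level of WT.

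Ebp, the sterol isomerase, went the other way at 0.27 ± 0.13 (adjusted p = 0.133), with all 3 KO arrays above WT. The mevalonate kinase genes Mvk and Pmvk were at 0.21 ± 0.14 and 0.03 ± 0.16, and the reductase gene Tm7sf2 at -0.07 ± 0.16. The 95% intervals of these 3 overlapped 0, at -0.11 to 0.52, -0.34 to 0.39 and -0.44 to 0.29. Mvk was detected on 1 of the 3 WT arrays only, so its level there is poorly measured.

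**Figure D2:**
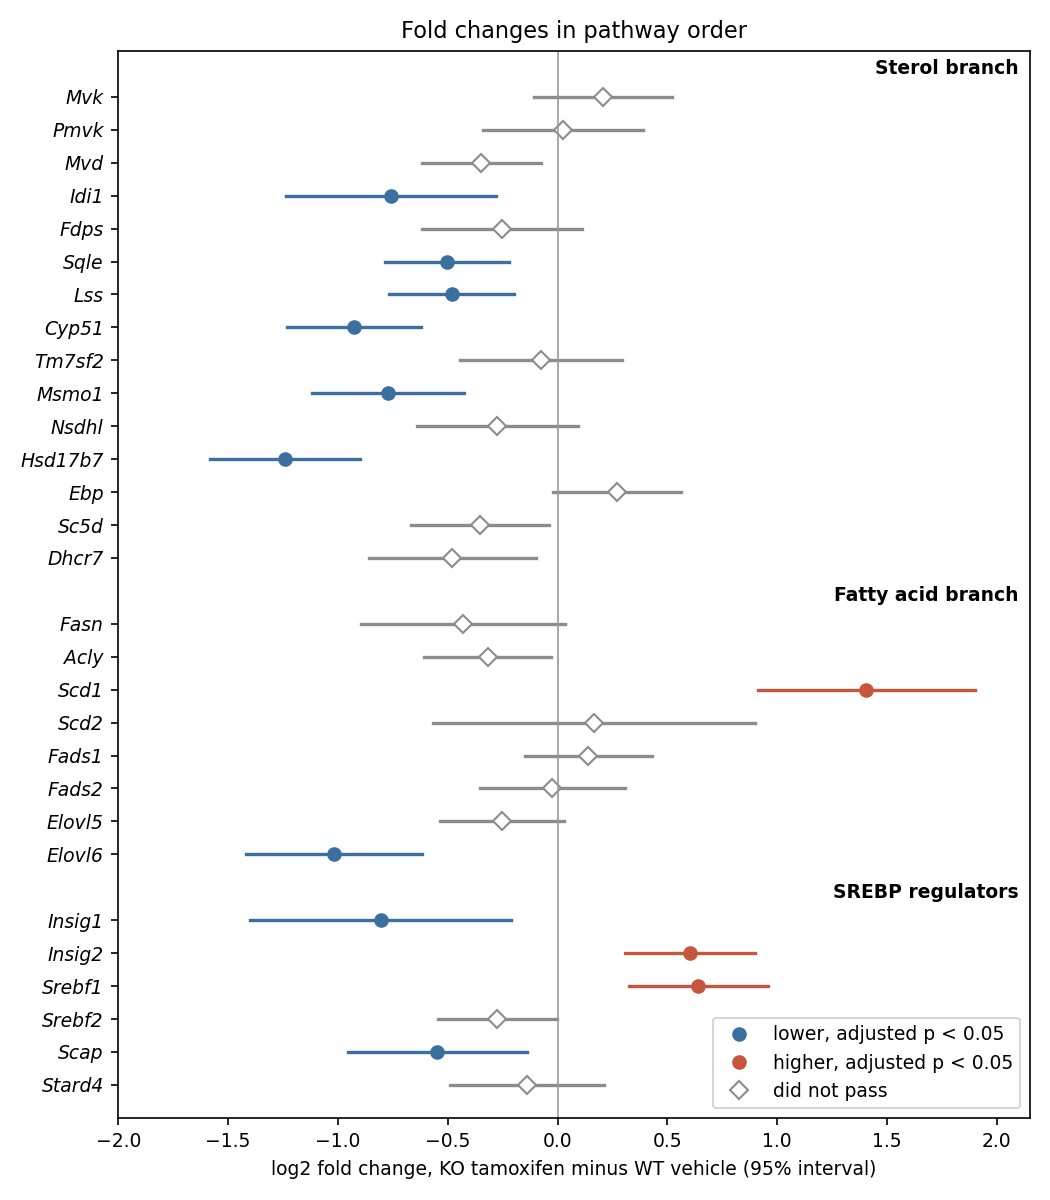
Log2 fold change of each tested gene, KO tamoxifen minus WT vehicle, with its 95% interval from the limma fit. Genes are grouped by branch, and the pathway order of the title holds for the sterol branch only, from top to bottom. Filled circles passed at an adjusted p under 0.05 and open diamonds did not. The 6 sterol genes that passed lie between -0.48 and -1.24, while Scd1 and Elovl6 of the fatty acid branch moved in opposite directions.

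The fatty acid branch did not move as a group. Of 8 tested genes 1 fell and 1 rose, 12.5% each, against 17.1% and 19.7% over all genes, and the median was -0.14. Scd1, the desaturase that puts the double bond into stearate, rose by 2.65-fold, and Elovl6, the elongase that makes stearate from palmitate, fell by 2.03-fold. The enzymes they encode act on successive steps.

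Scd1 read 6.91, 7.02 and 6.53 in WT and 7.87, 8.66 and 8.16 in KO (1.41 ± 0.22 SE, adjusted p = 0.00219). KO replicate 2 was the highest, and the lowest KO array was above the highest WT array. The rise was 1.19 to 1.59 with single arrays left out and 0.90 without background correction, with the call kept in all of these. Elovl6 read 7.97, 8.51 and 8.42 in WT and 7.43, 7.34 and 7.07 in KO (-1.02 ± 0.18, adjusted p = 0.00327). WT replicate 1 was the lowest of its group but still above all KO arrays, and the call was kept under every setting tried. A further Elovl6 probe was not detected on any array.

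Scd1 is abundant in fat cells and is also expressed in macrophages. Of 10 fat cell marker genes with a probe, 7 were not detected on any array, Fabp4, Plin1, Retn and Lep among them, and 1 was detected on each WT array and 1 to 3 on the KO arrays. The only one tested, Lpl, which macrophages also express, rose by 1.00 ± 0.23. Its linear signal was 736 to 1038 in WT and 1178 to 2142 in KO. The 7 macrophage markers tested, of 9 with a probe, had a summed linear signal of 7365 to 8500 in WT and 13697 to 21354 in KO, and Itgam and Itgax were not detected on any array. The part of these cells in the Scd1 rise was not tested.

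Enzymes that supply and build the fatty acid chain were lower in value but did not pass. Acly, which makes cytosolic acetyl-CoA from citrate, read 13.21, 12.95 and 13.22 in WT and 12.87, 12.76 and 12.80 in KO (-0.32 ± 0.13, adjusted p = 0.0797). Its groups did not overlap, and its adjusted p ran from 0.0218 to 0.218 over the alternatives. Fasn, the fatty acid synthase, read 5.86, 5.79 and 5.12 in WT and 5.08, 5.06 and 5.34 in KO (-0.43 ± 0.20, adjusted p = 0.132). It was near the limit of detection, with 2 WT arrays and 1 KO array detected, and WT replicate 3 read with the KO arrays. Without that array Fasn was at -0.67 and passed (adjusted p = 0.0211, against 0.0211 to 0.363 over all alternatives).

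The genes of polyunsaturated fatty acid synthesis differed little. Fads1 and Fads2, the delta-5 and delta-6 desaturases, were at 0.14 ± 0.13 and -0.02 ± 0.15, with 95% intervals of -0.15 to 0.43 and -0.36 to 0.31. Elovl5, which lengthens their products, was at -0.25 ± 0.12 (adjusted p = 0.145) with KO below WT on every array. Scd2, the related desaturase that is prominent in brain, read 8.89, 7.77 and 8.95 in WT and 9.13, 8.61 and 8.36 in KO (0.17 ± 0.32). WT replicate 2 lay more than 1 log2 unit below the other WT arrays, so the interval of Scd2 ran from -0.57 to 0.90, and its sign changed without that array (-0.21) or without KO replicate 1 (-0.05).

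The regulators split, with Insig1 and Scap lower and Insig2 and Srebf1 higher. Of the 6 tested, 2 fell and 2 rose, 33.3% each, against 17.1% and 19.7% of all genes, at a median of -0.21. Insig1 read 8.14, 7.72 and 7.92 in WT and 6.47, 7.39 and 7.49 in KO at its brightest probe (-0.80 ± 0.26, adjusted p = 0.0404). KO replicate 1 was far below the other KO arrays. Without it the difference was -0.48 with the call kept. Leaving out WT replicate 1 (adjusted p = 0.128) or WT replicate 3 (0.10) lost the call. So did a common median (0.0601), no filter on detection (0.0950) and a block for replicate number (0.0503), within a range of 0.00155 to 0.128. Dimmer Insig1 probes fell more, by 1.05 ± 0.21 (adjusted p = 0.00673) and 1.30 ± 0.19 (adjusted p = 0.00253), and on these KO replicate 1 read no lower than KO replicate 3.

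Insig2, the other INSIG gene, is not induced by SREBP in the way Insig1 is. It read 8.82, 8.79 and 8.80 in WT and 9.30, 9.30 and 9.61 in KO at its brightest probe (0.60 ± 0.13, adjusted p = 0.00836). The WT arrays hardly varied and each KO array was higher. A further Insig2 probe, with non-overlapping groups, was at 0.22 ± 0.12 (adjusted p = 0.198) and did not pass.

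Srebf1 read 5.76, 5.72 and 5.51 in WT and 6.12, 6.37 and 6.43 in KO (0.64 ± 0.14, adjusted p = 0.00825), with every KO array above every WT array. It is a dim probe, and without background correction the rise was 0.25. A further Srebf1 probe was not detected on any array. Srebf2 was at -0.27 ± 0.12 (adjusted p = 0.102) at its brightest probe, which read 9.38, 9.24 and 9.34 in WT and 8.98, 9.03 and 9.13 in KO. Its further probe read 8.0, 8.21 and 8.10 in WT and 7.17, 7.37 and 7.34 in KO and fell by 0.81 ± 0.13 (adjusted p = 0.00325). All KO arrays were below WT on both Srebf2 probes, so the probes differed in size and call but not in direction.

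Scap read 8.94, 8.88 and 8.84 in WT and 8.75, 8.11 and 8.15 in KO (-0.55 ± 0.18, adjusted p = 0.0411). KO replicate 1 was close to WT, and the call was lost with any single array left out except that one (adjusted p of 0.0820 to 0.131) and with no filter on detection (0.0742). A further Scap probe was at -0.41 ± 0.16 (adjusted p = 0.0817) with overlapping groups. Stard4, which moves sterol between membranes, read 8.91, 9.17 and 9.13 in WT and 8.68, 8.95 and 9.16 in KO (-0.14 ± 0.15, adjusted p = 0.509). Stard4 thus showed no difference past the spread between arrays, with a 95% interval of -0.49 to 0.21.

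**Figure D3:**
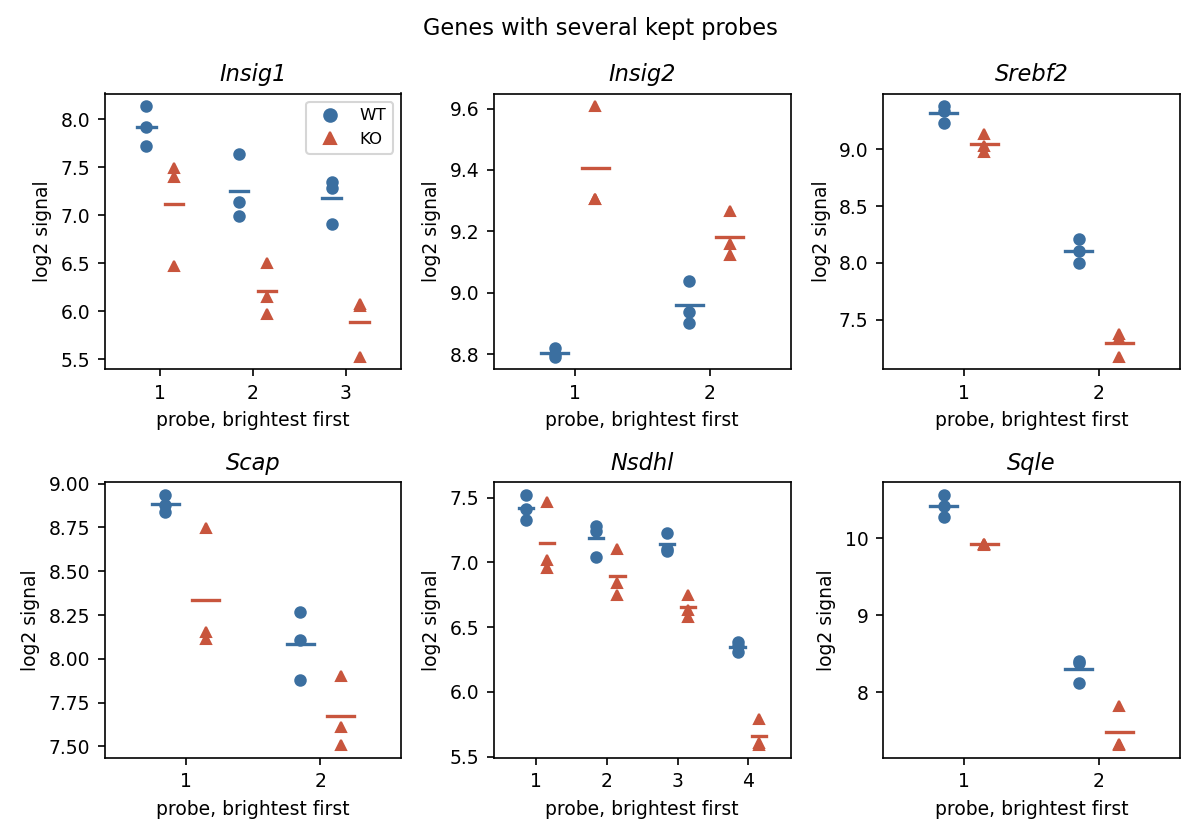
Normalized log2 signal of every kept probe of 6 genes that had more than 1, with the brightest probe first. Circles are the 3 WT arrays, triangles the 3 KO arrays and bars group means, and each panel has its own vertical scale that does not start at 0. All probes of Insig1, Srebf2, Scap, Nsdhl and Sqle have the lower mean in KO and both Insig2 probes the higher mean, but the sizes differ between probes.

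Of the 50 probes of the listed genes, 8 were not detected on any array, in Sqle, Lss, Hsd17b7, Acaca, Elovl6, Insig1, Insig2 and Srebf1. Over all 41 kept probes of the listed genes, 15 fell and 3 rose, where 16.5% of all kept probes fell and 15.7% rose. Among the 9 genes with more than 1 kept probe, the probes had the same sign for 8, the exception being Fads2 at -0.02 and 0.15. For Nsdhl, Insig2, Srebf2 and Scap, 4 of these 9 genes, the kept probes did not give the same call.

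Promoter sequence is given for 4 of the genes that carry letters known from SREBP or MYC sites. Other carriers are named below but not printed, among them Insig2, which rose. Of the 4 printed, Hsd17b7, Msmo1 and Insig1 fell, and Srebf2 did not pass at its brightest probe. RefSeq promoters of 300 bases (build GRCm38.p6, 250 bases before to 50 after the start site) were held for 26 of the 33 genes. Hsd17b7 and Insig1 carry the E-box letters CACGTG that MYC and its relatives bind. Srebf2 carries CACCCCA, core letters of the sterol regulatory element that SREBP binds, and Msmo1 and Insig1 the looser form CACNCCA, which includes the former. Each is printed on the strand of its gene, 5′ to 3′, with these letters in capitals. On the opposite strand the element reads reversed and complemented, as in Insig1.
Hsd17b7, chr1:169969156-169969455, minus strand: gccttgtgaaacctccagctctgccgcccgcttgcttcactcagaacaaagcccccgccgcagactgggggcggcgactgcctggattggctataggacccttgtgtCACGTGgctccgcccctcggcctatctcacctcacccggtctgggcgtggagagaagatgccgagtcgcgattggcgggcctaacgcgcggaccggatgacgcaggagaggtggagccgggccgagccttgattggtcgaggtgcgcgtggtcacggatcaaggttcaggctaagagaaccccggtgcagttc
Msmo1, chr8:64733529-64733828, minus strand: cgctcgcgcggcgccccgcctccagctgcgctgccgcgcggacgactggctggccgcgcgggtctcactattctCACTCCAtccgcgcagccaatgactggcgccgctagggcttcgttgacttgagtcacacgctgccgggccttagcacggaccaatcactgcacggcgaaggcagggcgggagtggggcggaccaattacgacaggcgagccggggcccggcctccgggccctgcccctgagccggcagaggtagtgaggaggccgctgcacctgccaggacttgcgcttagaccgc
Insig1, chr5:28071162-28071461, plus strand: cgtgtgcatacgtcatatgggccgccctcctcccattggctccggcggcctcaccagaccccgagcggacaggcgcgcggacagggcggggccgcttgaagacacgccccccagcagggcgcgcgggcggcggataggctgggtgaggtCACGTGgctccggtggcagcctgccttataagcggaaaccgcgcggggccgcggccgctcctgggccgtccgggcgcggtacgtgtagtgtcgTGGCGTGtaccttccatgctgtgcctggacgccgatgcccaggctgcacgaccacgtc
Srebf2, chr15:82147019-82147318, plus strand: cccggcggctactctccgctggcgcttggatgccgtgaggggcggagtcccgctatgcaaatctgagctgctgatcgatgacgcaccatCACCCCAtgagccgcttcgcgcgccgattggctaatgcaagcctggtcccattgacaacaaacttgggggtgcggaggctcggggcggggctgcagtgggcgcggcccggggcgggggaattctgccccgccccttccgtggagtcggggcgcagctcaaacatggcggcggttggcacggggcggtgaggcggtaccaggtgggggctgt

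In these windows the E-box began 143 bases before the start site of Hsd17b7 and 101 before that of Insig1. The sterol element letters began 176 bases before the start site of Msmo1, 161 before that of Srebf2 and 8 before that of Insig1. Counting both strands, CACGTG was in the windows of 6 of the 26 genes (23.1%), which were Hsd17b7, Sc5d, Dhcr7, Elovl5, Insig1 and Scap. It was in 8.09% of all genes with a promoter and in 11.9% of those tested on the arrays. Of the 6, Hsd17b7, Insig1 and Scap fell, and the rest did not pass, where 17.1% of all genes tested fell and 19.7% rose. The calls of Insig1 and Scap were lost with some single arrays left out. A link of these letters to the falls was not tested. The windows of Cyp51, Lss, Idi1 and Elovl6, which fell, and of Srebf1, which rose, held neither CACGTG nor either form of the sterol element.

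The letters CACCCCA were in 3 of the 26 genes (11.5%) and 8.66% of all genes, and CACNCCA in 6 (23.1%) and 20.6%. The 6 were Hmgcs1, Acat2, Msmo1, Insig1, Insig2 and Srebf2. Among them Msmo1 and Insig1 fell, Insig2 rose and Srebf2 did not pass, while Hmgcs1 and Acat2 were not measured. Over all genes tested 17.1% fell and 19.7% rose. The CCAAT box CCAAT, bound by NF-Y, was in 14 of 15 sterol genes (93.3%), 3 of 6 fatty acid genes (50%) and 41.1% of all genes. The GC box GGGCGG was in 14 of the 15 sterol genes and 68.6% of the genes tested on the arrays. The 15 sterol genes with a promoter include Hmgcs1 and Acat2, which were not measured here. A match of letters is not a binding site, and these shares carry no test.

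Genes around the 2 branches were then counted from lists. For SREBP processing, 15 genes were tested, of which 3 fell (20%) and 1 rose (6.67%), with a median of -0.01. The share that fell is near the 17.1% of all genes, and 19.7% of all genes rose. Spring1, which helps SCAP and the S1P protease act, read 8.15, 7.95 and 7.79 in WT and 7.39, 6.99 and 6.74 in KO (-0.93 ± 0.18, adjusted p = 0.00596). Its KO arrays all lay below WT, and the difference was -0.58 without background correction. Of 11 further genes listed for sterol handling and uptake, 5 were tested, of which 3 fell and 1 rose. Lrp8, a lipoprotein receptor gene, read 8.29, 8.27 and 8.36 in WT and 7.53, 7.39 and 7.29 in KO (-0.90 ± 0.12, adjusted p = 0.00143), and was at -0.54 when its probes were averaged. Vldlr, the other lipoprotein receptor gene tested in that list, was at 0.06 ± 0.17 and did not pass. Of 10 genes that use isoprenoids, 1 fell, Coq2 of ubiquinone synthesis, at -0.76 ± 0.13 (adjusted p = 0.00356), and 0 rose.

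Genes of sterol efflux, transport and storage that passed were all higher in KO. Of 7 tested genes listed for LXR receptors, their targets and sterol efflux, 5 rose (71.4%) and 0 fell, at a median of 0.65. Over all genes tested 19.7% rose and 17.1% fell. The 5 include Tspo, at 0.77 ± 0.16, so the count is not one of LXR targets alone. Nr1h3, which encodes LXR-alpha, read 8.98, 9.19 and 8.98 in WT and 10.15, 9.96 and 10.38 in KO (1.11 ± 0.15, adjusted p = 0.00130). Apoe, a lipid carrier, rose by 1.01 ± 0.20, and Lpcat3, a lysophospholipid acyltransferase, by 0.65 ± 0.14. The efflux transporter gene Abcg1 was at 0.07 ± 0.24 and Mylip at 0.28 ± 0.19, and neither passed.

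Of 17 genes of sterol transport and storage, 5 rose (29.4%, against 19.7% of all genes) and 0 fell, at a median of 0.32. Osbpl5, a lipid transfer protein gene, rose by 0.95 ± 0.15, and Cyp27a1, which makes an oxysterol, by 0.81 ± 0.14, or by 0.51 without background correction. Npc1, the lysosomal cholesterol exporter, rose by 0.65 ± 0.14 at its brightest probe but was at 0.17 when its probes were averaged, where it did not pass (adjusted p = 0.249). Nr1h3, Apoe and Cyp27a1 are known in macrophages, whose 7 tested markers rose together with these lists, with the summed signals given beside Scd1. The share of those cells in these rises was not tested.

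Other lists of lipid genes moved in both directions. Of 16 other fatty acid genes, 4 fell (25%) and 5 rose (31.2%), against 17.1% and 19.7% of all genes. Acsl6, an acyl-CoA synthetase of brain and red cell precursors, read 7.20, 7.53 and 7.72 in WT and 8.62, 8.96 and 8.77 in KO (1.30 ± 0.16, adjusted p = 0.00122), while the related Acsl3 fell by 0.68 ± 0.16. The red cell precursor markers, 5 tested of 5 with a probe, had a summed signal of 59133 to 65083 in WT and 70384 to 76006 in KO. Klf1, Epor and Alas2 rose. The brightest, Hba-a1 and Slc4a1, were at 0.16 ± 0.11 and -0.18 ± 0.15 and did not pass. The part of red cell precursors in the Acsl6 rise was not tested. Hsd17b12, the reductase of chain elongation, fell by 0.69 ± 0.11, and Mid1ip1, which activates acetyl-CoA carboxylase, rose by 0.80 ± 0.16.

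Of 10 genes supplying acetyl-CoA and NADPH, 2 fell and 3 rose, led by Pgls of the pentose phosphate pathway at -0.78 ± 0.17 and the acetyl-CoA synthetase gene Acss2 at 0.77 ± 0.12. Acss2 is an SREBP target in other settings. Of 22 glycerolipid genes 5 fell and 6 rose, with Gpam at -1.12 ± 0.21 and Ptdss2, a phosphatidylserine synthase gene, at 1.29 ± 0.16. Gpam was detected on 1 of 3 KO arrays and was at -0.42 without background correction, and Ptdss2 was at 0.71 when its probes were averaged. Of 20 genes of fatty acid oxidation 3 fell and 2 rose, with Echs1 at -0.59 ± 0.12, or -0.35 when its probes were averaged, and Eci1 at 0.92 ± 0.17. The shares that fell were 20%, 22.7% and 15% in these lists, near the 17.1% of all genes. Those that rose were 30%, 27.3% and 10%, against 19.7% of all genes.

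**Figure D4:**
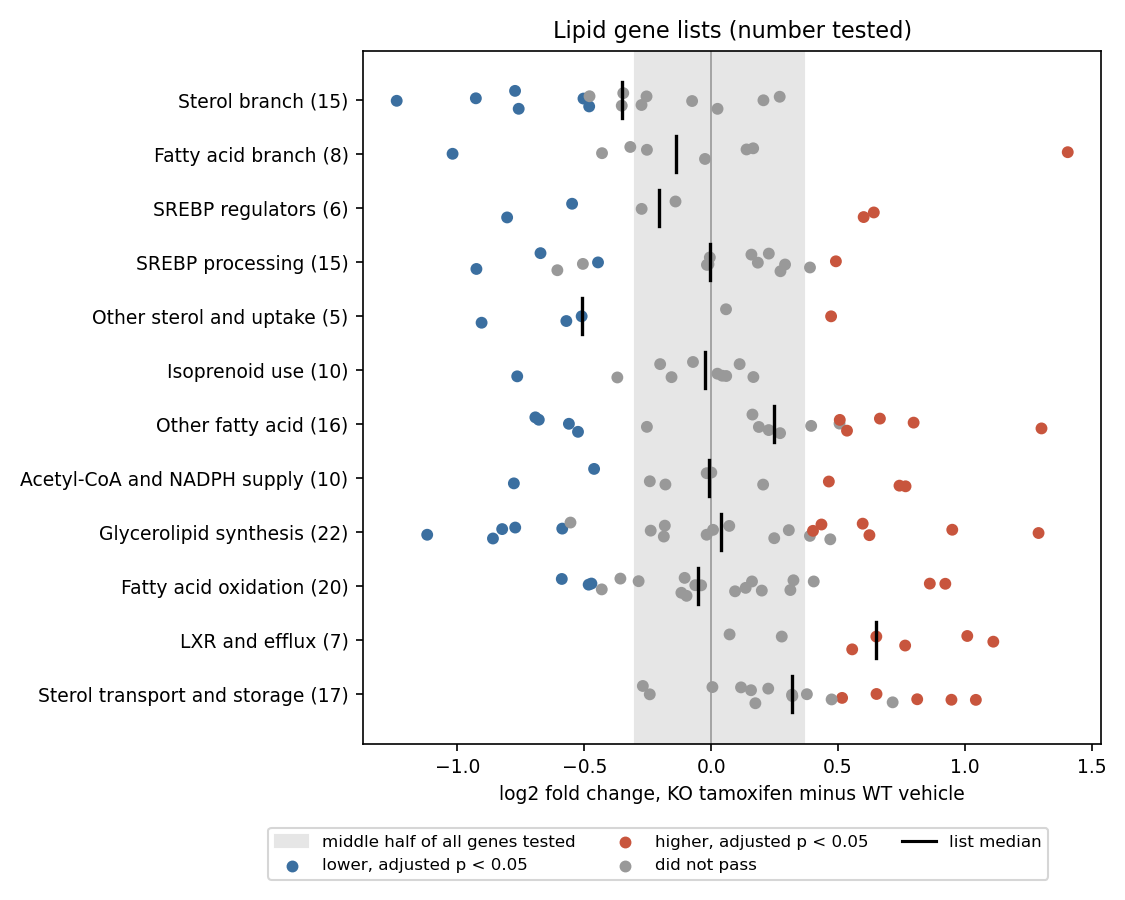
Log2 fold change, KO tamoxifen minus WT vehicle, of each tested gene in 12 lists of lipid genes, with the number tested in brackets. Points are genes, coloured by whether they passed at an adjusted p under 0.05, black bars are list medians and the grey band holds the middle 50% of all genes tested. The sterol branch median lies at -0.35 and the LXR and efflux median at 0.65, on opposite sides of the band.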

How the data were processed

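Total RNA of 6 mice was hybridised to Illumina bead arrays. Per the file headers, the authors' raw table holds an intensity and a detection p-value for each of 45281 probes. The deposited intensities are not normalized between arrays, as their medians differ, with scanner software not given in the sources used here. Their log2 table, also deposited by the authors, equals the quantile normalized log2 raw intensities within 5e-05 and was an alternative. Of the columns with values per sample, 0 were left aside.

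The intensities were normalized with neqc of limma 3.58.1 in R 4.3.3 (background from the detection p-values, offset 16, quantile, log2), so dim genes depend on that correction. Probe names came from the platform table, where 34885 probes had 1 symbol, 18 had several and 10378 had none. RefSeq (GRCm38.p6) held 34807 of the Entrez IDs and gave the promoters. Of the probes, 19082 were kept, and the brightest kept probe stood for each of 10208 genes. KO minus WT was tested with lmFit and eBayes, 2-sided, with Benjamini-Hochberg adjustment over all genes at 0.05, and further probes over all kept probes. Errors after ± are SE. The fit was tested on simulated data.

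Arrays given by value were those of genes called, of genes not called with an absolute change of at least 0.3, and of all regulators, with Nsdhl and Scd2 added after their values were seen. From other lists, up to 4 called genes with the largest change were eligible. Abcg1, Mylip, Vldlr and Krt8 were named after their values were seen. The members and lists were chosen with earlier results of these data known. The labels call the arrays biological replicates, and the precision is limited by 3 arrays a group. Groups and replicate numbers came from the titles. Figures were drawn with matplotlib 3.10.9.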

Additional observations from a re-analysis of the deposited data

How the results depend on the processing

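Gene counts, branch medians and fold changes were recomputed under 9 other settings and with each of the 6 arrays left out. This covered the listed genes, Myc and the eligible genes of other lists. Further probes, marker sums and promoter shares were not recomputed. Mvk, Idi1, Fasn and Gpam were absent under detection on all 6 arrays. Hsd17b7, Cyp51, Msmo1, Sqle, Elovl6, Scd1, Insig2 and Srebf1 kept direction and call under every setting and with every array left out. The sterol count of 6 lower genes ran from 4 to 9, with 4 to 8 when single arrays were left out. The sterol median was -0.26 without background correction or in the deposited log2 table and -0.44 with probes averaged per gene (-0.45 to -0.34 with single arrays left out). The fatty acid branch had 2 lower genes without background correction, with normexp without controls, in the deposited log2 table and with trend and robust eBayes, and 3 with a common median (1 to 2 with single arrays left out). Its median was -0.21 with a common median and -0.024 with no filter or with detection on all 6 arrays (-0.27 to -0.089 with single arrays left out). Lower regulators numbered 1 with a common median, 0 with no filter and 1 with the replicate block, and 3 with probes averaged, where Srebf2 passed too (0 to 2 with single arrays left out), and their median was -0.31 with the mean of probes (-0.29 to -0.13). Over all genes 1342 to 2092 were higher and 1141 to 1836 lower with single arrays left out, with 1342 higher and 1143 lower without WT replicate 3 and 1141 lower without WT replicate 1. The fatty acid count of 2 came without WT replicate 3, and regulators numbered 2 only without KO replicate 1. Signs changed only for genes that did not pass: Fads1 was at -0.0060 with a common median, Fads2 at 0.061 with probes averaged. With single arrays left out Fads2 ran from -0.12 to 0.069, Scd2 from -0.21 to 0.37, Pmvk from -0.065 to 0.18 and Tm7sf2 from -0.22 to 0.029. The cause was not tested. Whether replicate numbers pair the arrays cannot be settled with 3 arrays a group. Deviations from the group mean correlated at 0.17, 0.12 and -0.08 for equal numbers, and 3 of 6 arrays correlated best with their own number. With the replicate block, 2016 genes were higher and 1695 lower, 7 sterol genes fell, and Insig1 lost its call (adjusted p = 0.0503). A common median moved the median of all genes to -0.05. Genes near the background, such as Fasn and Mvk, are limited by signal.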
